A study of Mus musculus with 96 samples.

Results

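Gata2-positive and Gata2-negative cells were compared among erythroid progenitors of the lower intermediate sort gate, which was drawn at 25 to 35% of CD71/CD24 expression. The gate filled 24 wells of a 96-well plate, and the 21 wells with 50000 or more reads in genes were kept. The sides were chosen by the reads of Gata2 alone: 9 cells with 10 or more Gata2 reads were called positive and 12 cells with fewer were called negative. These are 21 of the 91 cells kept on the plate. The mice were C57/Bl6J, and fetal livers were taken at embryonic day 14.5, with no engineered allele or treatment named. Cells carrying mature lineage markers, Sca-1, CD16/32 or CD41 had been depleted, and Kit, CD71 and CD24 were stained for the sort. The reference gates were BFUE (early progenitors named for their colonies, burst-forming units), an upper intermediate gate at 50 to 60%, and CFUE (late progenitors, colony-forming units). Each well held 1 cell, read by Smart-seq2, which amplifies full-length cDNA of polyadenylated RNA. No animal or pool is named in the labels, so the gate is 1 sample, its cells are not replicates, and no test, standard error or p-value is given. Gate and plate columns cannot be told apart, since each gate filled its own 3 columns.

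Gata2 and Gata1 are zinc-finger transcription factors that bind the same short DNA motif. In blood formation Gata2 maintains stem and early progenitor cells, and Gata1 takes over as erythroid cells mature and represses Gata2, an exchange known as the GATA switch. Klf1 is an erythroid activator that works downstream of Gata1 on globin, heme and membrane genes. Progenitors pass from BFU-E, which still share features with other blood lineages, to CFU-E, which depend on erythropoietin and divide rapidly before they fill with hemoglobin.

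Depth and quality covered similar ranges on both sides, apart from a single well. Positive cells held 1076518 to 3196597 reads (median 1409993) and negative cells 1022381 to 1750949 (median 1499742.5). The positive cell of well G6 had the 3196597 reads, 22.99% of all reads of the positive side, and so weighs most in the summed values below. Genes with a read numbered 8769 to 10334 in positive and 8805 to 9881 in negative cells, and mitochondrial genes held 1.10 to 2.17% and 1.49 to 2.45% of reads. The top rows of the plate (A to D) held 5 positive and 7 negative cells, and the bottom rows (E to H) 4 and 5. Positive and negative cells numbered 3 and 4 in plate column 4, 4 and 2 in column 5, and 2 and 6 in column 6. Levels are given in CPM, the reads of a gene per 1000000 reads of the well. Summed CPM pool the reads of a side, and every interval is an exact 95% interval of the counting error of reads only. The reads carry no molecular identifiers, so amplified copies are counted, and the intervals cover neither amplification nor differences between cells.

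Gata2 reads set the sides and are a description, not a finding. In the positive cells Gata2 stood at 14.2 CPM (17 reads, well B4, the value just inside the threshold), 16.9, 17.2, 22.3, 26.8, 41.8, 59.5, 60.4 and 72.4 CPM. In the negative cells 8 had 0 reads, 2 had 1 read, and wells E6 and D6 had 3 and 5 reads, the last being the value just outside the threshold (3.88 CPM). By the sampling of reads alone, a count of 0 at these depths allows up to 1.71 to 2.93 CPM. Transcripts lost before sequencing are not covered, so a negative cell is not shown to lack Gata2. Cells with 10 or more Gata2 reads made up 11 of 15 BFUE cells that had under 100 CPM of the stem cell marker Cd34 (Cd34-low BFUE) and 5 of the other 8. They made up 9 of 21 lower intermediate cells (42.9%), 2 of 24 upper intermediate cells and 0 of 23 CFUE cells, as shares of the cells of 1 sample per gate. After every cell was thinned to 500000 reads these counts were 11, 4, 6, 0 and 0. The positive cells of the lower gate lay below the median of Cd34-low BFUE cells (92.9 CPM, range 0.620 to 1353) and within their range.

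Gata1 and Klf1 were read in every cell of both sides. Gata2 lies on chromosome 6 (88193891 to 88207032, GRCm38), Gata1 on chromosome X (7959260 to 7978071) and Klf1 on chromosome 8 (84901928 to 84905291). Gata1 ranged from 286 to 679 CPM in positive cells (median 419) and from 249 to 589 CPM in negative cells (median 398). The sides overlapped almost fully, and summed Gata1 was 409.9 against 410.6 CPM, a log2 ratio of -0.00. Klf1 ranged from 529 to 999 CPM in positive cells (median 740) and from 595 to 1183 CPM in negative cells (median 869). Negative cells were higher in Klf1 in 70.4% of the 108 pairs of a positive and a negative cell, and the summed level was 1.15-fold higher in them (1.12 to 1.17). Medians of Klf1 were 684 CPM in Cd34-low BFUE, 967 in the upper intermediate gate and 1001 in CFUE, so the medians of both sides lay between those of their neighbours.

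**Figure D1:**
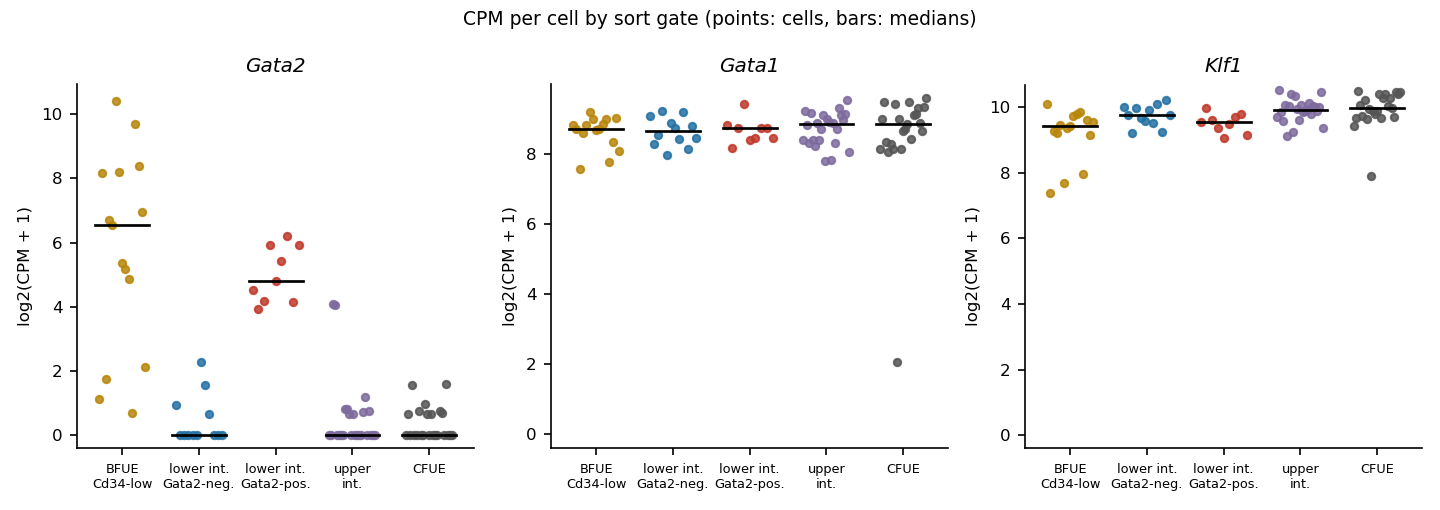
Gata2, Gata1 and Klf1 in single cells of 5 groups, as log2 of CPM plus 1; each point is a cell and each bar a median. The positive cells lie between 14.2 and 72.4 CPM of Gata2 by selection, while Gata1 and Klf1 overlap between the sides.

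The genes stained for sorting were read in all 21 cells. Kit, the stem cell factor receptor, was 360 to 1139 CPM in positive and 424 to 1354 CPM in negative cells, and Tfrc, the transferrin receptor CD71, was 291 to 738 and 247 to 881 CPM. Both overlapped widely, with log2 ratios of -0.13 and -0.15, and Tfrc was higher in positive cells in the top rows (0.25). Cd24a, which encodes CD24, was 166 to 468 CPM in positive cells (median 387) and 204 to 710 CPM in negative cells (median 492). It was 1.51-fold higher in negative cells (1.45 to 1.57), which exceeded positive cells in 80.6% of pairs, and fell short of 1.5-fold without any 1 of 9 cells (lowest 1.43-fold). Cd24a stood at 96.9 CPM in Cd34-low BFUE and 737 CPM in the upper gate when reads were summed. In Cd24a the 2 sides thus differed in the direction in which the gates differ. Tfrc also rose between these gates (185 to 674 CPM), while Kit fell (764 to 402 CPM). The small difference in Kit therefore ran against that of the gates.

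Across the genome the sides differed in both directions to a like extent. Apart from Gata2, 7882 genes reached 10 CPM in either side and are called measured. Of these, 930 (11.8%) were 1.5-fold or more higher in positive cells and 1017 (12.9%) were 1.5-fold or more lower, with a median log2 ratio over all measured genes of -0.00. These shares are the background for every count below. Of the 930, 353 (38.0%) reached 10 CPM in positive cells only, and of the 1017, 380 (37.4%) in negative cells only, so the filter alone favoured a difference for them. No gene separated the sides: 0 measured genes (0%) had all positive cells on one side of all negative cells. The median gene was higher on its own side in 59.3% of pairs, 42 genes reached 85% and 3 reached 90%. Those 3 were Cbfa2t3, Elp3 and, below the level set for named genes, Commd10, which was 0 to 25.5 CPM in positive and 5.38 to 61.7 CPM in negative cells.

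Cbfa2t3 showed the largest share of pairs of all measured genes. It lies on chromosome 8 (122625141 to 122699109) and encodes ETO2, a co-repressor that joins Tal1 and Gata factors on erythroid and megakaryocyte genes. Its level in the positive cells was 36.9, 52.7, 63.6, 68.4, 77.9, 84.7, 86.0, 125 and 130 CPM. In the negative cells it ran from 0.637 to 80.7 CPM with a median of 31.7, and 8 of 12 lay below every positive cell. The sides overlapped through the negative cells at 43.3, 49.2, 57.1 and 80.7 CPM, and positive cells were higher in 91.7% of pairs. Summed Cbfa2t3 was 80.0 against 30.8 CPM, 2.60-fold higher in positive cells (2.34 to 2.89). The log2 ratio of 1.38 was 1.38 in the top rows and 1.44 in the bottom rows, and 0.55 where positive cells needed 10 Gata2 reads after thinning. Between gates Cbfa2t3 went from 84.1 CPM in Cd34-low BFUE to 46.0 CPM in the upper gate and 21.1 CPM in CFUE. The antisense gene Gm10612 overlaps the start of Cbfa2t3, and without strand their reads cannot be told apart there.

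The windows of 250 bases before the annotated starts of Gata2 and Cbfa2t3 are printed because Gata2 set the sides and Cbfa2t3 had the largest share of pairs (RefSeq, GRCm38.p6; 5′ to 3′ on the strand of the gene). The window of Gata2 is chr6:88193641-88193890 on the plus strand, before the more upstream of its 2 starts in the table, and that of Cbfa2t3 is chr8:122699110-122699359 on the minus strand. Capitals mark a GATA motif, searched as AGATAA or TGATAA on both strands.
Gata2: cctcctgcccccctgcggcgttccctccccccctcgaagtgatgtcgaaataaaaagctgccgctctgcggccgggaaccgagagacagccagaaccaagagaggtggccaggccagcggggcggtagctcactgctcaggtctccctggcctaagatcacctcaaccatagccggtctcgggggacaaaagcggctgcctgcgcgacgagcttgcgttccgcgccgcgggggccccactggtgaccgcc
Cbfa2t3: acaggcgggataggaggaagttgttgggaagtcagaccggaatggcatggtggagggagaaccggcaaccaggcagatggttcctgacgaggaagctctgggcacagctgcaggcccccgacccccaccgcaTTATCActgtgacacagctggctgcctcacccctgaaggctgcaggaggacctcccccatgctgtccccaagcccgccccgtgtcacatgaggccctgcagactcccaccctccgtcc
The Gata2 windows, at both starts, held neither form. The printed Cbfa2t3 window held TGATAA on the reverse strand (read here as TTATCA), beginning 118 bases before the start, and the window of its other start in the table held neither form. Of 32851 promoter windows of this length, 16.6% held either form. Among the leading genes chosen by the rule given below, with a window in the table, 1 of 10 higher in positive cells had it in any window, which was Cbfa2t3 itself, and 2 of 12 lower, against 18.8% of all 27025 genes. A match describes the letters in the window and is not a binding site.

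Other genes were named by a rule: 50 CPM or more on the higher side, 10 or more reads in at least 50% of its cells, no cell with over 50% of its reads, a 1.5-fold or larger ratio in summed and in mean CPM, and the same direction in the top and the bottom rows. They were ranked by share of pairs. The rule was met by 178 genes higher and 201 genes lower in positive cells, of which those among the leading 15 on each side are described, and no test stands behind this ranking. Elp3, the catalytic subunit of Elongator, which modifies wobble bases of tRNA, was 121 to 292 CPM in positive cells (median 176) and 45.2 to 245 CPM in negative cells (median 89.1). It was 1.89-fold higher (1.78 to 2.01), with 90.7% of pairs. Its log2 ratio was 0.39 in the top rows and 1.68 in the bottom rows, so most of the difference lay in the bottom rows. Trim28, the co-repressor of KRAB zinc-finger proteins, was 204 to 498 CPM against 91.2 to 276 CPM, 1.56-fold higher (1.49 to 1.63), and 1.44-fold without well B5 and 1.49-fold without G6. Gna15, a G protein alpha subunit of blood cells, was 76.1 to 159 CPM against 0 to 92.6 CPM, 1.75-fold higher (1.61 to 1.90). Of the negative cells, 8 of 12 lay below every positive cell in Gna15.

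Vps13b, a Golgi-associated lipid transfer protein, had the largest ratio of the named higher genes, with 4.96 to 105 CPM in positive (median 57.2) and 0 to 54.8 CPM in negative cells (median 14.9). Also named were Tsta3 (1.61-fold), which makes GDP-fucose, Prkcsh (1.83-fold), the beta subunit of glucosidase II, Syvn1 (1.89-fold), a ubiquitin ligase of the endoplasmic reticulum, Tmem115 (2.39-fold), a Golgi protein, and Vps53 (1.97-fold) of the GARP tethering complex. The other named higher genes were Mycbp, Otud6b, R3hcc1l, Gnb1l and Fam53b, at 1.60- to 2.47-fold. Tsta3 without well C4 and Otud6b without well G4 fell just short of 1.5-fold. All 15 overlapped between the sides, with 85.2 to 91.7% of pairs.

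Ccdc6, a coiled-coil protein known as a fusion partner of the RET kinase, led the genes lower in positive cells. It stood at 0.709, 0.929, 14.4, 22.5, 27.7, 30.9, 61.6, 68.8 and 69.7 CPM in the positive cells and at 53.7 to 110 CPM (median 78.1) in the negative cells. Of the positive cells, 6 lay below every negative cell and 3 lay among them. Summed Ccdc6 was 2.57-fold lower (2.31 to 2.87), with 89.8% of pairs. Chrac1, a histone-fold subunit of the chromatin accessibility complex, was 8.04 to 108 CPM in positive cells (median 37.9) and 38.1 to 157 CPM in negative cells (median 116), 2.21-fold lower (2.03 to 2.42).

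Fance, of the Fanconi anemia core complex that repairs DNA crosslinks, was 0.313 to 122 CPM in positive and 62.1 to 171 CPM in negative cells, 2.29-fold lower (2.10 to 2.51). That difference came almost entirely from the bottom rows, with a log2 ratio of -2.65 there and -0.05 in the top rows. Zeb2, a zinc-finger repressor active in early blood cells, was 0.626 to 73.8 CPM against 19.4 to 96.3 CPM, 2.37-fold lower (2.10 to 2.69). Others lower by 1.59- to 2.71-fold were Zfp445, a zinc-finger protein that protects imprints, Atg3, an enzyme of autophagy, Slc25a36, a mitochondrial nucleotide carrier, Timm22 of the inner-membrane import machinery, Tsen15 of the tRNA splicing endonuclease and Cog4 of a Golgi tethering complex. Endod1, Narf, Klhl23 and Gde1 were also among the leading 15, and each of the genes named here overlapped between the sides. Atg3 fell just short of 1.5-fold without well A5. Without well G6 the log2 ratio of Endod1 went from -1.32 to -1.96, and that cell held 50.6% of its reads on the positive side.

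**Figure D2:**
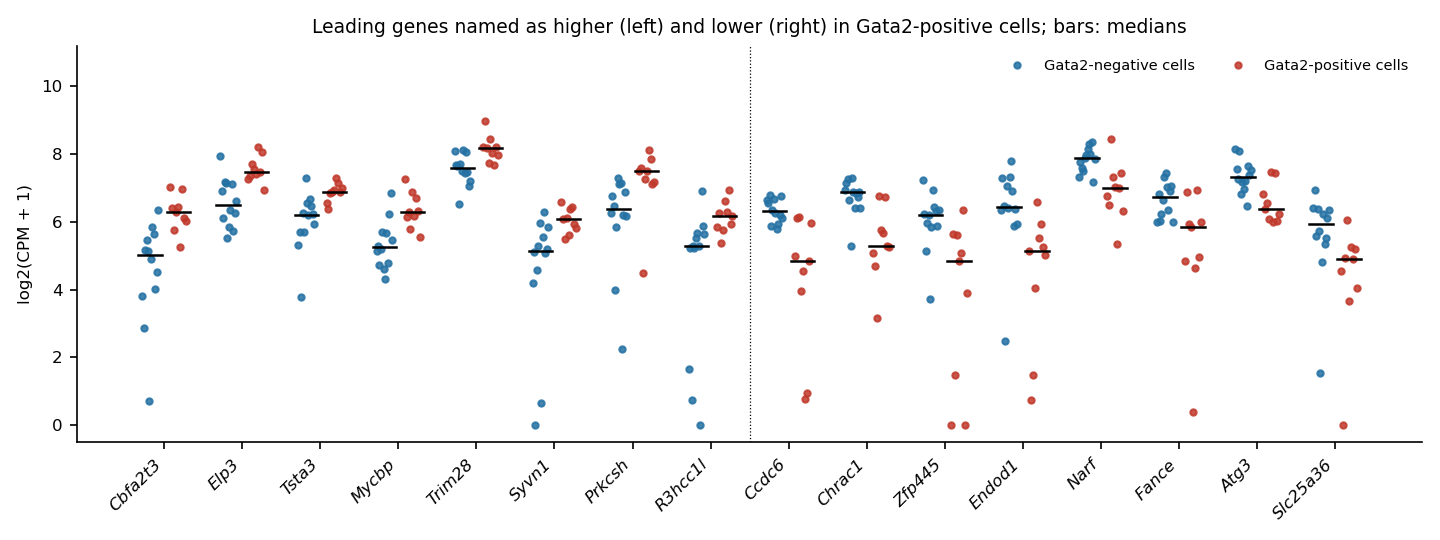
Level of 8 leading genes named as higher (left of the dotted line) and 8 named as lower (right) in Gata2-positive cells, as log2 of CPM plus 1; points are the 9 positive and 12 negative cells, bars are medians. The medians differ for each gene, and points of both sides share a range in each.

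Genes that differ between the neighbouring gates gave a scale for the 21 cells that does not use the Gata2 split. Of 4547 genes with 50 CPM or more in Cd34-low BFUE or the upper intermediate gate, 109 (2.4%) were 3-fold or more higher in BFUE and 56 (1.23%) were 3-fold or more higher in the upper gate. Gata2, Kit, Tfrc and Cd24a were left out of both sets. The position of a cell is the mean of log2 of CPM plus 10 over a set, set to 0% at the mean of Cd34-low BFUE cells and 100% at the mean of upper intermediate cells.

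On genes higher in BFUE, positive cells stood at 39.4, 48.1, 54.2, 55.1, 55.8, 60.3, 60.5, 62.6 and 76.9% of the way. Negative cells stood at 45.1 to 92.4% with a median of 71.3%, against a median of 55.8% in positive cells. The sides overlapped, but 4 negative cells lay beyond every positive cell, and negative cells were further along in 80 of 108 pairs (74.1%). On genes higher in the upper gate, positive cells stood at 39.5 to 70.1% (median 46.7%) and negative cells at 31.8 to 94.6% (median 61.5%), with negative cells further along in 76 of 108 pairs (70.4%). Again 4 negative cells lay beyond every positive cell, while the cell nearest to BFUE on this set was negative (well C5, 31.8%).

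The top and bottom rows of the plate gave different values. In the bottom rows negative cells were further along in 20 of 20 pairs on the genes higher in BFUE and in 16 of 20 on those higher in the upper gate. In the top rows the counts were 19 of 35 (54.3%) and 23 of 35 (65.7%). Median differences in favour of the negative cells were 23.3 and 22.8 percentage points in the bottom rows and 10.3 and 10.9 in the top rows. Over all rows the differences were 15.6 and 14.8 points. The first was 5.19 points with all 23 kept BFUE cells as the 0% reference, and the second was 8.23 points without any 1 of the negative wells B6, C4, E6, F4, G4 and H6. Spearman's rho of Gata2 CPM with position was -0.02 and -0.25 over the 9 positive cells, and -0.44 and -0.34 over all 21, as a description of cells of 1 sample.

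**Figure D3:**
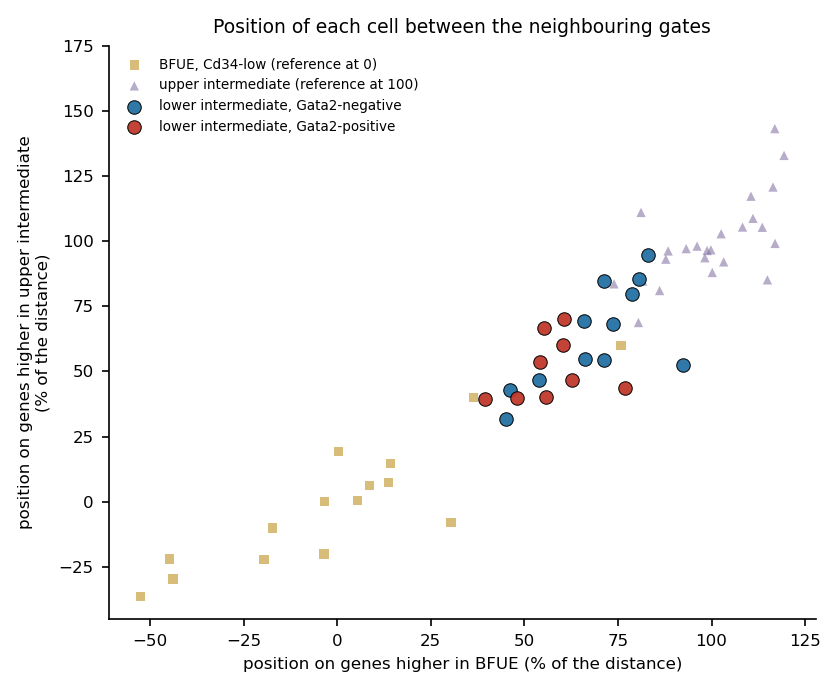
Position of each cell between Cd34-low BFUE (0%) and the upper intermediate gate (100%) on 109 genes higher in BFUE (x axis) and 56 genes higher in the upper gate (y axis). Positive cells span 39.4 to 76.9% on the x axis, negative cells 45.1 to 92.4%, and on each axis no positive cell reaches the 4 foremost negative cells.

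Gene by gene, the ratio between the sides leaned the way the gates differ. Of the 109 genes higher in BFUE, 100 were measured in the lower gate, and 69 of these (69.0%) were higher in positive cells, against 49.7% of all measured genes. Of the 100, 29 (29.0%) were 1.5-fold or more higher and 5 (5.0%) lower, beside the background of 11.8% and 12.9%. Of those 29, 10 reached 10 CPM in positive cells only, and with no such filter 76 of 108 genes with a ratio (70.4%) were higher in positive cells. All 56 genes higher in the upper gate were measured: 11 (19.6%) were higher in positive cells, 2 (3.57%) by 1.5-fold or more, and 21 (37.5%) were 1.5-fold or more lower, 2 of them measured in negative cells only. Median log2 ratios were 0.25 and -0.37. Among genes 5-fold or more apart between the gates the shares higher in positive cells were 44 of 54 with a ratio (81.5%, median log2 ratio 0.56) and 2 of 18 (11.1%, median -0.72). In the top rows the share among genes higher in BFUE was 53.7%, near the 51.1% of all measured genes there, and in the bottom rows it was 74.2% beside 48.5%. For genes higher in the upper gate it was 37.5% and 28.6%, below all genes in both parts of the plate.

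A few genes of these sets with large shares of pairs were picked for description once their values were known. Arpc1b, a subunit of the actin-nucleating Arp2/3 complex, was 162 to 330 CPM in positive cells (median 224) and 56.9 to 271 CPM in negative cells (median 166), beside 513 CPM in Cd34-low BFUE and 94.6 CPM in the upper gate. Laptm5, a lysosomal protein of blood cells, was 27.0 to 130 CPM (median 58.8) against 0.978 to 85.2 CPM (median 29.0). Their ratios were 1.65-fold (1.57 to 1.73) and 2.04-fold (1.83 to 2.27), and both sides overlapped. In the opposite direction Tnfrsf14, the receptor HVEM, was 6.25 to 36.8 CPM in positive cells (median 20.8) and 3.64 to 73.1 CPM in negative cells (median 38.6). Acp5, the tartrate-resistant acid phosphatase, was 0 to 38.2 CPM (median 8.93) against 0 to 110 CPM (median 41.0), 2.99-fold lower in positive cells (2.58 to 3.48), with 53.7% of its positive reads in well G6, without which it was 4.98-fold lower. Ccne2 and Hba-a1, given with their lists below, are in the same set.

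**Figure D4:**
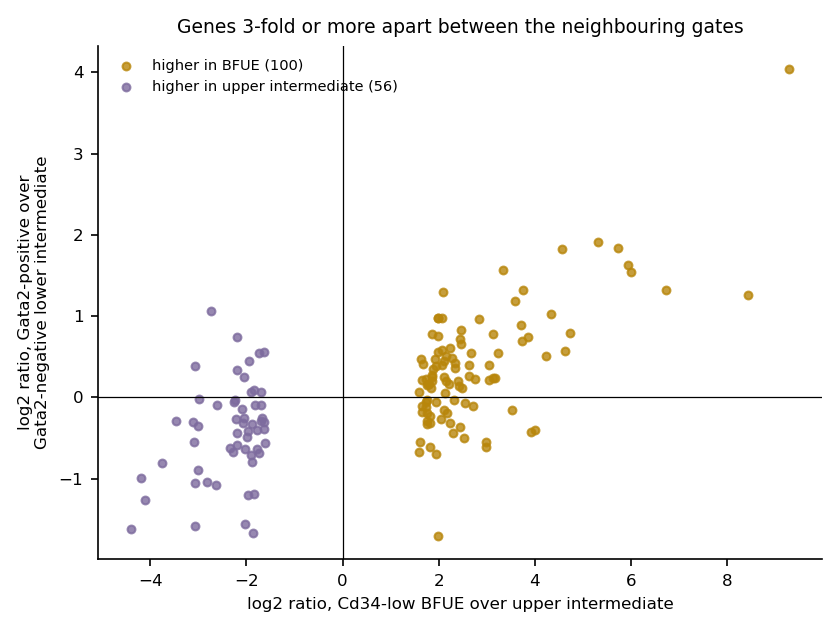
Log2 ratio between Gata2-positive and Gata2-negative cells (y axis) against the log2 ratio between Cd34-low BFUE and the upper gate (x axis) for the measured genes 3-fold or more apart between those gates, 100 higher in BFUE and 56 higher in the upper gate. Of these, 69 and 11 lie above 0.

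The list of GATA factors and Fog had 1 measured member, Gata1, described above. The other gene lists are described by the number of measured members 1.5-fold or more apart and by their median log2 ratio, both read beside the background. Erythroid transcription factors other than Gata2 lay on both sides: of 22 measured members 4 were higher and 3 lower in positive cells, with a median of 0.01 (-0.01 with TMM scaling). Hemgn, hemogen, was 0.929 to 158 CPM in positive cells (median 28.8) and 1.89 to 391 CPM in negative cells (median 70.7), 2.93-fold lower. Gfi1b, a repressor needed for red cell and platelet formation, was 31.1 to 732 CPM (median 335) against 214 to 1139 CPM (median 633), 1.82-fold lower. On the higher side stood Cbfa2t3 and Myb, a factor of immature progenitors, which was 33.1 to 159 CPM against 16.8 to 101 CPM, 1.59-fold higher, and 1.38- to 1.49-fold without any 1 of the wells C4, F5, G4 and G6.

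Lists of red cell products had medians below 0. Of 16 measured heme synthesis and transport genes 0 were 1.5-fold or more higher and 2 lower in positive cells, with a median of -0.28 and 18.8% of members above 0. Slc25a37, mitoferrin, which brings iron into mitochondria, was 0 to 43.0 CPM in positive cells (median 1.86) and 0 to 66.5 CPM in negative cells (median 20.9), 3.23-fold lower and 6.65-fold without well H5, and it reached 10 CPM in negative cells only. Alas1 was 1.81-fold lower. Hba-a1, an alpha globin, was 1.46 to 17.5 CPM in positive cells (median 8.93) and 3.69 to 59.4 CPM in negative cells (median 24.5), 3.06-fold lower (2.54 to 3.71). Its reads may be shared with the near-identical Hba-a2, and both sides were far under the 161 CPM of the upper gate. Among 29 genes of the red cell membrane and surface, 2 stood higher and 5 lower (median -0.17). Of these, 1 higher gene (Dmtn, dematin) and 1 lower gene (Epb42, protein 4.2 of the red cell skeleton) were measured on that side only. The filter thus fixed their directions. Epb42 was 2.08-fold lower and Dmtn 2.68-fold higher, but well G6 held 65.9% and 57.7% of their positive reads. Without it they were 4.70-fold lower and 1.47-fold higher, Epb42 was 1.47-fold lower without well B6 and Dmtn 4.41-fold higher without G4. Markers of late erythroblasts counted 1 higher, measured in positive cells only, and 4 lower of 13 measured. Their median of -0.34 was -0.03 in the top rows and -0.24 in the bottom rows. Iron handling genes showed 0 higher and 0 lower of 15 (median -0.02).

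Of 31 stem and multipotent progenitor genes 8 were measured. The pair of 1.5-fold or more higher, Fli1 and Cd48, reached 10 CPM in positive cells only, so that their direction was fixed by the filter, and 0 were lower. The list median of 0.11 was -0.03 over the 6 members measured on both sides, and changed sign in 5 alternatives. Fli1, an Ets factor of stem cells and megakaryocytes, had 10 or more reads in 3 of 9 positive cells and 1 of 12 negative cells. It was 0 to 72.7 CPM against 0 to 7.92 CPM, with 59.2% of its positive reads in well B4 and 100% of its negative reads in well A5. Of 24 genes of the actin cytoskeleton, adhesion and leukocyte scaffold 7 were higher and 0 lower, with a median of 0.41 and 75.0% above 0. The median was 0.24 without well G6, 0.09 in the top rows and 0.56 in the bottom rows. Myh9, non-muscle myosin heavy chain, was 19.2 to 90.1 CPM in positive cells (median 35.5) and 0 to 52.7 CPM in negative cells (median 8.35), with positive cells higher in 87.0% of pairs. Rgs19, a regulator of G protein signalling, was 9.19 to 104 CPM against 0 to 112 CPM, 1.95-fold higher. Itga5, the fibronectin receptor alpha 5, was 2.47-fold higher, and Coro1a, coronin, measured in positive cells only, was 3.59-fold higher. However, well G6 held 51.3% and 71.8% of their positive reads. Without that well the ratios were 1.56 and 1.32.

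**Figure D5:**
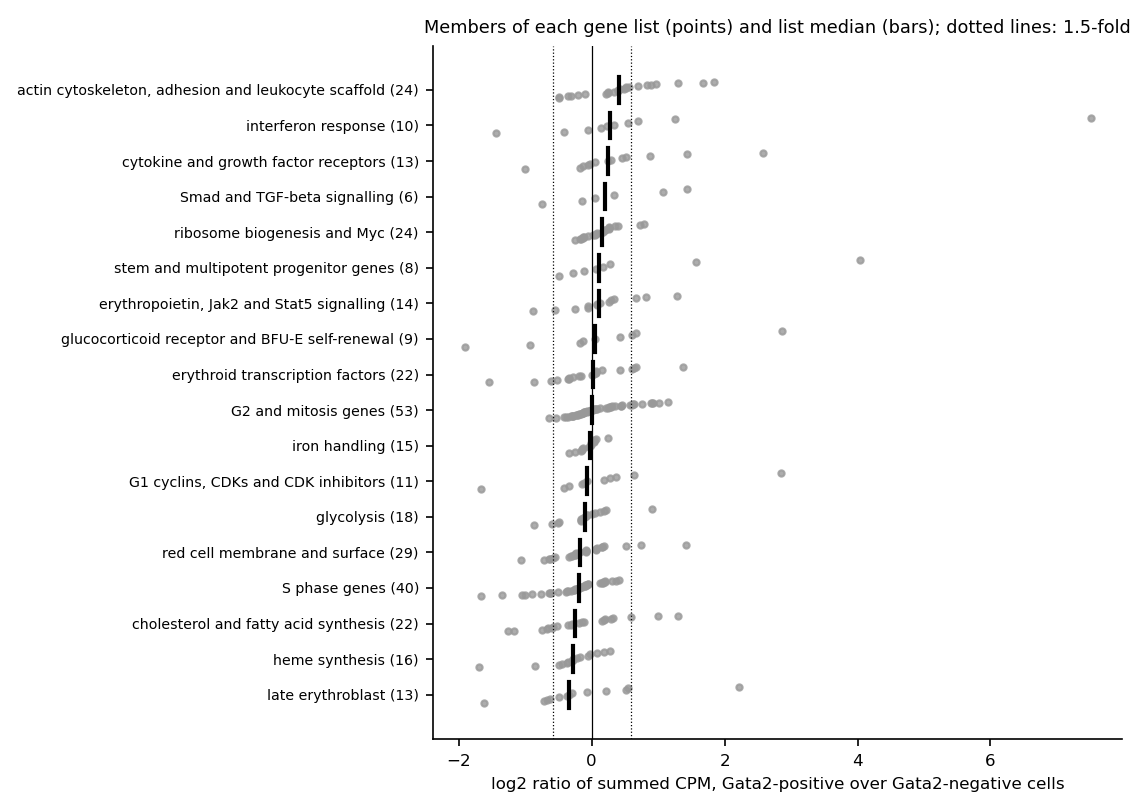
Log2 ratio of summed CPM between the sides for each measured member (points) of the lists with 5 or more of them, with list medians (black bars) and the number of members in parentheses; dotted lines mark 1.5-fold. Medians run from -0.34 for late erythroblast markers to 0.41 for the actin, adhesion and scaffold list.

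Of the cell cycle lists, S phase genes leaned lower in positive cells, and the median of G2 and mitosis genes was near 0. Of 40 measured S phase genes 0 were higher and 9 lower in positive cells (22.5% above 0, median -0.19), and the median was -0.25 in the top rows and -0.20 in the bottom rows. Ccne2, cyclin E2, which drives entry into S phase, was 1.34 to 182 CPM in positive cells (median 17.6) and 24.1 to 306 CPM in negative cells (median 121), 3.19-fold lower (2.92 to 3.49) with 81.5% of pairs. Ung, the uracil glycosylase, was 1.31 to 177 CPM against 9.32 to 321 CPM, 2.07-fold lower. Wdr76 and E2f8, a repressor of E2F targets, were 2.54-fold and 2.01-fold lower, and E2f8 was 3.12-fold lower without well G6 and just short of 1.5-fold without G4. Clspn and Dtl, also lower, were 1.49- and 1.41-fold lower without well A5. Exo1 and Slbp fell short of 1.5-fold without any 1 of several wells, at lowest 1.38-fold (without G6) and 1.39-fold (without G4). Of 53 G2 and mitosis genes 9 were higher and 1 lower (median 0.01, with another sign in 2 alternatives). Members above 0 made up 50.9%, beside 49.7% of all measured genes. Of the higher genes, Cenpf was 1.44-fold without well A6, Kif20b 1.28-fold without G6 and Kif2c 1.39-fold without F5. The lower gene, Cdc25c, was 1.55-fold lower and 1.28-fold without G6. Ube2c, the ubiquitin-conjugating enzyme of the anaphase-promoting complex, was 78.6 to 684 CPM in positive cells (median 213) and 35.8 to 600 CPM in negative cells (median 113), 2.22-fold higher. Top2a, topoisomerase II alpha, was 182 to 663 CPM against 69.1 to 482 CPM, 2.02-fold higher, and Kif11, the mitotic kinesin, was 1.90-fold higher. G1 cyclins, kinases and inhibitors counted 2 higher, both measured in positive cells only, and 1 lower of 11. Without the S phase and mitosis genes the differences in position were 15.6 and 14.4 percentage points, beside 15.6 and 14.8 with them. How many such genes the position sets held was not counted, so the part of the cell cycle in position was not tested.

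Signalling genes were mostly low and carried by few cells. Of 13 measured cytokine and growth factor receptors 3 were higher and 1 lower (median 0.25), 2 and 1 of them measured on that side only, and that median turned to -0.02 in the top rows. Of the genes described next, Insr and Tgfbr2 reached 10 CPM in positive cells only and Il1rl1 in negative cells only. The filter thus fixed their directions. Insr, the insulin receptor, was 0 to 69.2 CPM in positive cells (median 15.4) and 0 to 22.8 CPM in negative cells (median 0), 5.97-fold higher (4.48 to 8.09) with 81.5% of pairs. Well H6 held 70.2% of its negative reads, and without it the log2 ratio went from 2.58 to 4.17. Tgfbr2, a TGF-beta receptor, was 2.71-fold higher, with 50.6% of its positive reads in well G6, and was 1.74-fold higher without it, 4.35-fold without A4 and 5.49-fold without G4. Il1rl1 was 2.01-fold lower, and 3.29-fold without well B5. The median of the list was 0.00 without well G6. Of 14 genes of erythropoietin, Jak2 and Stat5 signalling 3 were higher, among them Spred2 at 2.44-fold, and 1 lower, Gab1 at 1.85-fold (1.26-fold without well H6 and 1.42-fold without G6). Of the 3, 2 were measured in positive cells only, Spred2 and Socs2. Socs2 was 1.77-fold higher, but 1.01-fold lower without well B5. Pim2 was 1.59-fold higher, but 1.19-fold lower without well E4. The list of glucocorticoid receptor and BFU-E self-renewal genes counted 3 higher and 2 lower of 9, 1 and 1 of them measured on that side only. The receptor Nr3c1 was 0.626 to 62.8 CPM in positive cells (median 29.8) and 0 to 119 CPM in negative cells (median 45.2), 1.91-fold lower and 1.48-fold without well G6. Its target Tsc22d3, measured in negative cells only, was 3.76-fold lower, 6.21-fold without well A6 and 7.34-fold without H5. In the opposite direction Per1, measured in positive cells only, was 7.30-fold higher, 4.59-fold without well G6 and 36.2-fold without C5. The filter fixed the directions of Tsc22d3 and Per1. Of 6 Smad and TGF-beta genes 2 were higher and 1 lower, 1 and 1 of them measured on that side only. Their median of 0.19 was -0.06 without well G6.

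Interferon response genes counted 3 higher and 1 lower of 10 (median 0.28), and the median was 0.01 among top-row cells. Of the 3, 2 (Ifi27 and Psmb8) were measured in positive cells only, so the filter fixed their directions. Ifi27 had 10 or more reads in 5 of 9 positive and 0 of 12 negative cells. It was 0 to 115 CPM against 0 to 1.25 CPM, and well F5 held 58.0% of its positive reads. H2-K1, the heavy chain of a class I histocompatibility antigen, was 1.63-fold and Psmb8, an immunoproteasome subunit, 2.39-fold higher, but 1.39-fold without well G6 and 1.23-fold without well F5. H2-K1 was 1.49-fold higher without G4. Irf9, part of the interferon-activated complex ISGF3, was of median 19.6 CPM against 49.1 CPM, 2.72-fold lower and 4.42-fold without well B5. Members of this list thus lay on both sides.

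Among metabolic lists, cholesterol and fatty acid synthesis had 3 higher and 6 lower of 22, 1 and 1 of them measured on that side only. The median was -0.25, with -0.55 in the top rows and 0.04 in the bottom rows. Scd1, the stearoyl-CoA desaturase, measured in negative cells only, was 0 to 35.1 CPM in positive and 0 to 66.2 CPM in negative cells. Msmo1, a sterol oxidase, was 2.24-fold lower. Acaca, acetyl-CoA carboxylase, was 42.1 against 21.1 CPM in summed reads. Glycolysis had 1 higher and 2 lower of 18 (median -0.09), among them the pyruvate kinase Pkm at 1.82-fold lower, which was 1.46-fold without well G6 or H6. Ribosome biogenesis and Myc genes had 2 higher and 0 lower of 24, with 70.8% above 0 (median 0.16). Polr1b, a core subunit of RNA polymerase I, was 241 to 583 CPM in positive cells (median 379) and 128 to 538 CPM in negative cells (median 247), 1.66-fold higher (1.59 to 1.72) and 1.47-fold without well G6, and Rrp1b was 1.73-fold higher. Immediate early genes had 0 higher and 0 lower of 2 measured.

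Other cell types were looked for by their markers. Of lymphoid, neutrophil and monocyte, and endothelial and stromal markers 0 were measured, and 10 of 16, 11 of 19 and 8 of 13 had no read in the 21 cells, among them Cd3e, S100a8, Csf3r, Kdr and Col1a1. Macrophage markers summed to 31.3 to 182 CPM in positive and 1.71 to 348 CPM in negative cells, with Adgre1 and C1qa at 0. Slc40a1 alone ran from 31.3 to 180 and from 1.14 to 348 CPM, so these sums were mostly that gene. Hepatoblast markers summed to 23.2 to 179 and 18.6 to 262 CPM, with 0 higher and 2 lower of 3 measured, 1 of the 2 in negative cells only. Mast cell markers summed to 30.5 to 236 and 30.6 to 184 CPM, with Mcpt8 and Tpsb2 at 0. Srgn alone ran from 29.8 to 233 and from 21.3 to 184 CPM, and likewise made up most of these sums. Megakaryocyte markers summed to 1.79 to 142 CPM (median 47.0) in positive and 4.85 to 70.2 CPM (median 25.7) in negative cells. Of 18 megakaryocyte markers 4 were measured, all through 1 side only, so that the filter fixed their directions. They were Gp1ba (17.98 against 2.80 CPM summed), Itga2b (14.7 against 4.14 CPM), which encodes the depleted CD41, Fli1 (10.6 against 0.641 CPM) and Cd9 (7.84 against 12.9 CPM), while Pf4, Ppbp and Itgb3 stood at 0. Their part in the other differences was not tested.

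The genes most like Gata2 over the 21 cells were taken as the 10 largest rank correlations among 4292 genes of 50 CPM or more, as a description of cells of 1 library plate. They were Gnpat (Spearman's rho 0.75), an enzyme of plasmalogen synthesis, Gna15 (0.74), Kpna2 (0.72), an importin, R3hcc1l (0.68), Tsta3 (0.68), Coq2 (0.67), of coenzyme Q synthesis, Cbfa2t3 (0.66), Syvn1 (0.65), Arfrp1 (0.64) and Mycbp (0.64). The ratio of Coq2 was 2.99, and 6.21 without well F4. That of Kpna2 was 1.67, and 1.46 without F5, and that of Arfrp1 was 1.48 without G4. Of these 10, Gna15, R3hcc1l, Tsta3, Cbfa2t3, Syvn1 and Mycbp were also named by share of pairs, which uses the same cells.

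The same 10-read split of the Cd34-low BFUE cells was made after the values above were seen. It set 11 cells against 4, and of 8396 measured genes 1849 (22%) were 1.5-fold or more higher and 1506 (17.9%) lower with Gata2, a wider spread than in the lower gate with fewer cells. Of the 15 genes named as higher in positive cells 11 kept their direction there, 5 by 1.5-fold or more, and 1 was 1.5-fold or more opposite (median log2 ratio 0.25), beside 50.2% of all measured genes higher with Gata2. Of the leading 15 lower genes 9 kept their direction, 3 by 1.5-fold or more, and 2 were opposite (median -0.03). Of all 8396 measured genes 1506 were 1.5-fold or more lower and 1849 higher, so these counts lie near the background. Elp3 (172 against 92.0 CPM) and Ccdc6 (20.3 against 70.3 CPM) differed as in the lower gate, while Cbfa2t3 did not (85.8 against 79.0 CPM). Tmem115, named as higher (47.5 against 77.4 CPM), and Slc25a36, named as lower (54.5 against 31.2 CPM), went the opposite way. These examples were picked once their values were known. BFUE cells with 10 or more Gata2 reads stood at -52.5 to 30.4% (median -3.51%) on genes higher in BFUE, and the 4 others at 0.393 to 75.8% (median 22.5%). These 15 cells also set the 0% point. Of 18 lists with 5 or more measured members in both splits, 13 had medians of the same sign, among them red cell membrane genes (-0.70 in BFUE and -0.17 in the lower gate) and the actin, adhesion and scaffold list (0.42 and 0.41). The other 5 differed in sign: erythroid transcription factors (-0.39 and 0.01), cholesterol and fatty acid synthesis (0.20 and -0.25), erythropoietin signalling (-0.13 and 0.11), G1 genes (0.44 and -0.07) and glycolysis (0.08 and -0.09). Some of the 13 had a median near 0 in 1 split: G2 and mitosis (0.25 and 0.01), ribosome biogenesis (0.01 and 0.16) and iron handling (-0.12 and -0.02). In the lower gate 11 of the 18 medians changed sign in at least 1 alternative.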

How the data were processed

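Reads of 96 single-cell Smart-seq2 libraries were aligned to GRCm38 (STAR 2.4) and assigned to genes (featureCounts), according to the submitters' processing notes. The authors deposited raw counts, with no normalisation. Annotation release, featureCounts version, strand setting and handling of shared reads: not given in the sources used here. Both members and lists were chosen with earlier results of these data known. The table held 49466 genes, and 5 wells under 50000 reads were left out, 3 of them in the lower gate. Doublets were not called, since each well was sorted as 1 cell. Counts were summed over the cells of a side and divided by their total. Summed counts of 0 were raised to 3 counts for a ratio, and no ratio was given where both sides were at or below it. Intervals of ratios are conditional binomial (Clopper-Pearson) and cover counting error only. The 20 gene lists and 8 marker lists had members measured at 10 CPM or more, with up to 4 members of the largest ratios named. The rule for named genes is given above with its results (the first 15 a side by share of pairs, ties by ratio), and it excluded predicted genes, pseudogenes, Xist and Y-linked genes. A gene among the leading 15 lower ones is not reported here. Wells were matched to names in order, since the header line holds an extra empty cell. Of the gene identifiers 99.7% are in GENCODE M21. Tests on simulated data with known ratios were made of the script for ratios. Alternatives were other thresholds, scalings (TMM of edgeR 4.0.16, size factors of DESeq2 1.42.0, R 4.3.3), thinning to 500000 reads, top or bottom rows of the plate and cells left out in turn. Leaving out well G6, taking only negative cells with 0 Gata2 reads, positions by plate rows or without each cell, ratios of single genes without each cell, members measured on both sides, and the BFUE split were chosen after seeing the data. Software was Python 3.11.15 with scipy 1.17.1, pandas 2.3.3, numpy 2.4.6 and, for figures, matplotlib 3.10.9.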

Additional observations from a re-analysis of the deposited data

How the results depend on the processing

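The numbers of genes 1.5-fold or more higher and lower in positive cells, 930 and 1017, moved by over 1.5 times with a filter of 50 CPM (256 and 285), without a filter (2899 and 3116) and in rows E to H alone (1498 and 1693). With each cell left out in turn they ranged from 937 to 995 and from 969 to 1093. A threshold of 10 CPM of Gata2 gave the same sides, 1 read gave 13 against 8 cells and 20 reads 8 against 13. The difference in median position on genes higher in BFUE, 15.6 percentage points, was 5.19 with all kept BFUE cells as the earlier reference, 10.3 in the top rows (A to D) and 23.3 in the bottom rows (E to H), and ranged from 13.3 to 15.9 with each cell left out. On genes higher in the upper gate, 14.8 points, it was 22.8 in rows E to H and ranged from 8.23 to 21.4 with each cell left out, at 8.23 without any 1 of the negative wells B6, C4, E6, F4, G4 and H6. No position difference changed sign in these alternatives. The median of the receptor list changed sign at 50 CPM (-0.0925), without a filter (-0.0255), after thinning (-0.0156) and in rows A to D (-0.0223). Of 18 list medians, 11 changed sign in at least 1 alternative. None of the 30 genes named by rule changed direction under an alternative run for it. The rule itself required the same direction in summed and mean CPM and in the top and bottom rows. Those alternatives therefore could not show a change. No paired analysis was possible because the labels number no replicates shared between the sides and no result comes from a test. Single-cell counts, 1 plate and unnamed animals limit what the values can show, and levels near a few reads rest on few cells.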

Other observations

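Gata2 was also read outside the cells compared. The 2 upper intermediate cells with 10 or more Gata2 reads, wells B7 (22 reads) and A9 (24 reads), stood at 73.9 and 81.6% on the genes higher in BFUE and at 83.6 and 84.6% on those higher in the upper gate. That gate ran from 73.9 to 119% on the former set, so B7 was its cell nearest to BFUE. Of the 3 wells of the lower gate left out for depth, E5 and H4 had 1 Gata2 read and G5 had 3, at 10596 to 16644 reads in all.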
